A study of Homo sapiens with 9 samples.

Results

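The mitochondrial ribosomal RNAs are MT-RNR1, the RNA of the small subunit of the mitochondrial ribosome, and MT-RNR2, the RNA of the large subunit. Their sites in lists of N6-methyladenosine (m6A) positions were taken from HepG2 cells, an established line from a human liver tumour. Sites were counted as MT-RNR1 when they lay on the plus strand of chromosome M between positions 648 and 1604 of build hg19, and as MT-RNR2 between 1671 and 3231. These bounds leave room for a shift of 1 to 2 nt between the hg19 mitochondrial sequence and the revised Cambridge reference. By this rule 9 of the 4429 distinct positions in the lists were rRNA positions, 2 in MT-RNR1 and 7 in MT-RNR2. They made 15 of the 4934 entries of the 3 lists.

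The cells carried a stably expressed shRNA against SETD2, shSETD2#1 (hairpin 1) or shSETD2#2 (hairpin 2), or a non-specific control shRNA. Each had been delivered by lentivirus and selected with puromycin, and the labels name 3 replicates per shRNA, 9 samples in all. The deposited data are 1 list per shRNA, given for all of its replicates, so replicate errors cannot be given, and each comparison is between lists and not between conditions. Whether the replicates were separate cultures is not stated. The lists held 482 sites with hairpin 1, 697 with hairpin 2 and 3755 in control.

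Both rRNAs are cut from one long transcript of the mitochondrial genome, in which each is flanked by tRNAs. They are folded and methylated at a few bases by mitochondrial enzymes and built into ribosomes that translate subunits of the respiratory chain. SETD2 is the histone methyltransferase that places trimethylation on lysine 36 of histone H3, and mitochondrial DNA is not packaged in histones. The series title names the assay miCLIP, in which ultraviolet light fixes an m6A antibody to the RNA and copying past that point into cDNA turns nearby C into T. The sample titles read m6A-seq and the labelled protocol has no crosslinking step, so "m6A site" is used here in the sense of the authors' file names. The labels also state that mRNA was purified before immunoprecipitation, so the rRNA reads are those that passed that step.

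Each listed site carries a whole-number score, taken here as the count of reads that cover the base, and the number of those reads with the C-to-T change was reconstructed from the order of the site names. Both are inferences and are called score and reconstructed reads. Intervals are 95% intervals, exact unless named otherwise, and cover counting error only. Read totals were not analysed here, and scores are compared as deposited. No gene names come with the lists, so HepG2 markers and the SETD2 transcript were not analysed here.

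MT-RNR2 held nearly all of the rRNA signal in every list, and a single position held most of it in 2 of the 3. With hairpin 1, 3 rRNA sites were listed, all in MT-RNR2. With hairpin 2 there were 6, of which 5 were in MT-RNR2 and 1 in MT-RNR1. The control list also had 6, again 5 in MT-RNR2 and 1 in MT-RNR1. Over the lists together, MT-RNR1 had 2.09 positions per kb and MT-RNR2 had 4.48.

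The rRNA sites were few in number in each list and had a higher median score than the whole list. Their median was 151 with hairpin 1, 150 with hairpin 2 and 482.5 in control, against 11, 15 and 14 over the whole list. At the other chromosome M sites it was 125, 177 and 739, above the rRNA median with hairpin 2 and in control. The rRNA sites held 8.16% of the summed score with hairpin 1 (1910 over 3 sites, mean 636.7), 8.03% with hairpin 2 (4141 over 6 sites, mean 690.2) and 8.92% in control (22855 over 6 sites, mean 3809). Of the listed sites they were 0.622% with hairpin 1 (interval 0.129 to 1.81), 0.861% with hairpin 2 (0.317 to 1.86) and 0.160% in control (0.0587 to 0.348). Among chromosome M sites alone, rRNA sites were 3 of 24 with hairpin 1, 6 of 26 with hairpin 2 and 6 of 25 in control. Of the chromosome M score they held 29.5% with hairpin 1, 48.4% with hairpin 2 and 45.1% in control. The other chromosome M sites made up 4.36% of the sites with hairpin 1, 2.87% with hairpin 2 and 0.506% in control, so a lower share in the much longer control list was not a matter of the rRNAs alone. No test was made of these shares, because each rests on 1 list. The interval for the rRNA sites in control overlapped those with both hairpins, with hairpin 2 only between 0.317 and 0.348. Such overlap does not show that the shares are equal.

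**Figure D1:**
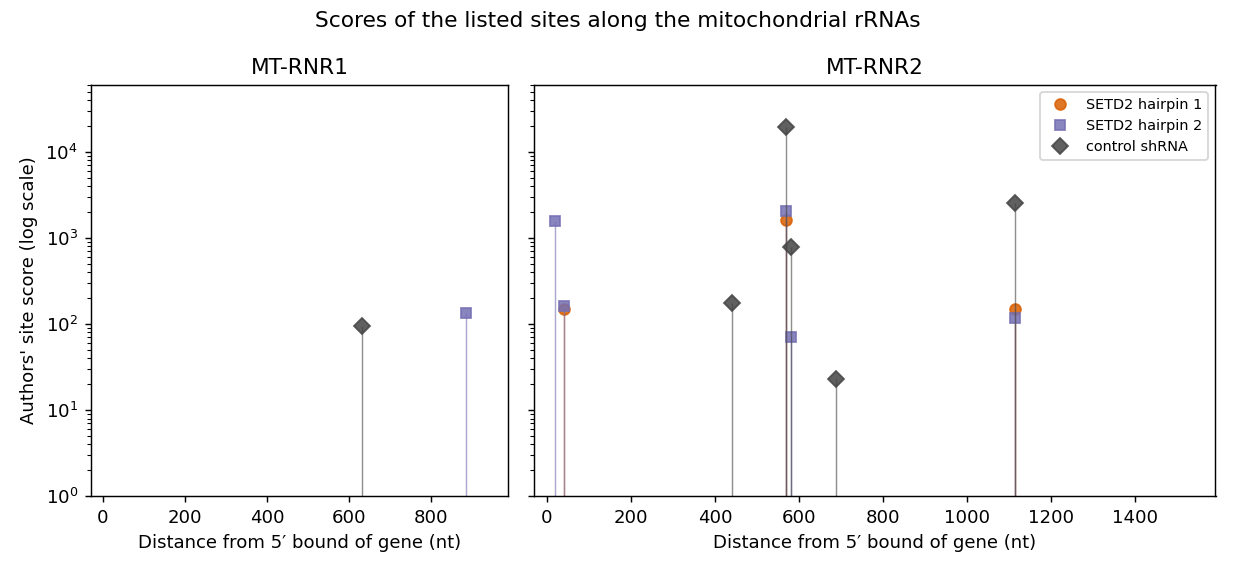
Score of each listed site (vertical axis, log scale) against its distance in nt from the 5′ bound of MT-RNR1 (left) and MT-RNR2 (right); circles are SETD2 hairpin 1, squares SETD2 hairpin 2 and diamonds the control shRNA, 1 list each. The highest point of each list lies 570 nt into MT-RNR2, with scores of 1608 with hairpin 1, 2069 with hairpin 2 and 19241 in control, and the points 1115 nt into the gene are the other position present in all 3 lists.

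The 2 MT-RNR1 positions were each in a single list. Position 1279, 631 nt from the 5′ bound of the gene, was listed in control only, with a score of 96 and 16 reconstructed C-to-T reads. That is a C-to-T share of 16.7% (interval 9.84 to 25.7), the highest of any rRNA site in the lists. Position 1532, 884 nt from the 5′ bound, was listed with hairpin 2 only, with a score of 136 and a single C-to-T read, a share of 0.735% (0.0186 to 4.03). The median share over control sites whose C-to-T reads were reconstructed as a single number was 12.5%. The MT-RNR1 site of the control list therefore had a high share among rRNA sites, but its interval contained the median of its list. That of hairpin 2 rested on 1 read.

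Position 2241, 570 nt into MT-RNR2, dominated the rRNA score. It had a score of 1608 with hairpin 1, 2069 with hairpin 2 and 19241 in control. It was the best covered site of the whole list with hairpin 1 and in control, and the fourth best with hairpin 2. It made up 84.2% of the rRNA score with hairpin 1, 49.96% with hairpin 2 and 84.2% in control. Of the score of the whole list it held 6.87% with hairpin 1 and 7.51% in control, the highest share of any site there.

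The score differed steeply between position 2241 and its nearest listed neighbour. Position 2253, only 12 nt downstream, had a score of 70 with hairpin 2 and 791 in control, and was not listed with hairpin 1. The score was thus 29.6-fold higher at 2241 than at 2253 with hairpin 2, and 24.3-fold higher in control. Taken as coverage, these scores would mean that few of the reads over 2241 also covered 2253. Whether the score is plain coverage was not tested. Position 2786, 1115 nt into MT-RNR2, was the other position in all 3 lists, with scores of 151 with hairpin 1, 117 with hairpin 2 and 2530 in control. It ranked twelfth by score in the control list.

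Of the 2 positions nearest the 5′ end of MT-RNR2, neither was in the control list, as was the case for most sites of the SETD2 lists. Of the sites outside the rRNAs, 46.6% with hairpin 1 and 34.9% with hairpin 2 were in the control list. Position 1712, 41 nt into the gene, was listed with both hairpins, at scores of 151 with hairpin 1 and 164 with hairpin 2 and with 3 C-to-T reads in each. Of the other sites with a score within 1.5-fold of it, 16 of 39 with hairpin 1 and 25 of 69 with hairpin 2 were in control. The 3 reads are C-to-T shares of 1.99% (interval 0.412 to 5.70) with hairpin 1 and 1.83% (0.379 to 5.25) with hairpin 2. Position 1690, 19 nt into the gene and 22 nt upstream of 1712, was listed with hairpin 2 only. Its score of 1585 was the sixth highest of that list, and 9.67-fold above that of 1712. With 23 C-to-T reads, its share was 1.45% (0.922 to 2.17). Among the other hairpin 2 sites with a score within 1.5-fold of that of 1690, 2 of 4 were in the control list. A position missing from a list need not have lacked reads, since the rule by which the authors listed sites is not given in the sources used here.

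On either side of 2241 and 2253, MT-RNR2 had a site that was listed in control only. Position 2112 had a score of 174 with 7 C-to-T reads, a share of 4.02% (interval 1.63 to 8.11). Position 2358 had a score of 23 with a single C-to-T read, a share of 4.35% (0.11 to 22.0). Together with 1279 of MT-RNR1, these were the 3 rRNA positions found in control alone.

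Hairpin 1 shared 2 of the 6 control rRNA sites, base for base, and hairpin 2 shared 3 of 6. Over the whole control list, 5.99% of sites recurred with hairpin 1 and 6.50% with hairpin 2. Of the other 19 chromosome M control sites, 11 recurred with hairpin 1 (57.9%, interval 33.5 to 79.8) and 9 with hairpin 2 (47.4%, 24.5 to 71.1). The intervals for the rRNA sites, 4.33% to 77.7% with hairpin 1 and 11.8% to 88.2% with hairpin 2, contain the values of the other chromosome M sites. The value of the whole control list lies inside the rRNA interval with hairpin 1 and below it with hairpin 2, without regard to coverage.

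Which rRNA sites recurred went with their control score. The 2 with the highest control scores, 2241 and 2786, recurred with both hairpins, and 2253, the third, with hairpin 2. The other control sites with a score within 1.5-fold of that of 2786 recurred at 8 of 9 with hairpin 1 and 7 of 9 with hairpin 2. For the control score of 2253 these numbers were 18 of 30 with hairpin 1 and 17 of 30 with hairpin 2. For 1279 they were 62 of 425 with hairpin 1 (14.6%) and 58 of 425 with hairpin 2 (13.6%), and for 2112 they were 45 of 224 with hairpin 1 (20.1%) and 37 of 224 with hairpin 2 (16.5%). For 2358 they were 24 of 684 with hairpin 1 (3.51%) and 26 of 684 with hairpin 2 (3.80%). The 3 rRNA sites that recurred with neither hairpin therefore had control scores at which most other control sites did not recur either. The part of coverage in the recurrence of the rRNA sites was not tested.

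The score was lower than in control at every shared rRNA site. At position 2241 it was 12.0-fold lower with hairpin 1 than in control (interval 11.4 to 12.6) and 9.30-fold lower with hairpin 2 (8.89 to 9.74). At position 2786 it was 16.8-fold lower with hairpin 1 (14.2 to 19.9) and 21.6-fold lower with hairpin 2 (18.0 to 26.3). At position 2253 it was 11.3-fold lower with hairpin 2 (8.84 to 14.6). With either hairpin the interval at 2786 lay above that at 2241, which compares counting error only, since no spread between replicates is available.

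All 2 rRNA sites shared with hairpin 1 and all 3 shared with hairpin 2 had a score at least 2-fold lower than in control, but so had 84.0% of all sites shared with hairpin 1 and 73.0% of those shared with hairpin 2. The median log2 ratio to control was -3.82 at the rRNA sites and -2.81 over all 225 shared sites with hairpin 1. With hairpin 2 it was -3.50 at the rRNA sites and -2.30 over all 244 shared sites. Both hairpins were compared with the same control list. Of all shared sites, 28% had a ratio below that of position 2241 and 16% below that of position 2786 with hairpin 1, and 27.5% and 9.02% did so with hairpin 2. The ratios at the rRNA sites were thus in the lower part of those of all shared sites, and within their range. A shared site has a score of at least 3 in both lists, so sites of low control score could not show so low a ratio. The shared rRNA sites had control scores of 791 to 19241, against a median of 14 over the control list. The ratios were not compared at like score, and the part of coverage in them was not tested.

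Among mitochondrial sites shared with control, the rRNA sites were at or near the low end with both hairpins. The other chromosome M sites were 4.15-fold to 11.9-fold lower with hairpin 1 (11 sites, median 7.05-fold) and 4.73-fold to 13.6-fold lower with hairpin 2 (9 sites, median 5.17-fold). With hairpin 1 both rRNA sites were lower by more than each of these, but the interval of 2241 overlapped that of the site at 6445, which was 11.9-fold lower (10.9 to 13.0). With hairpin 2 the site at 10300, 13.6-fold lower (11.9 to 15.7), was lower by more than 2241 and 2253. Summed over the shared sites, the score was 12.4-fold lower at the rRNA sites and 8.41-fold lower at the other chromosome M sites with hairpin 1. The same sums with hairpin 2 were 10.0-fold lower at the rRNA sites and 6.24-fold lower at the others. These sums leave out sites missing from either list, such as 1690 with hairpin 2. Over all listed sites, the rRNA sites held 29.5% of the chromosome M score with hairpin 1, 48.4% with hairpin 2 and 45.1% in control. With hairpin 2, the larger difference at the rRNA sites was thus not seen over all listed sites. No test of these differences was made.

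**Figure D2:**
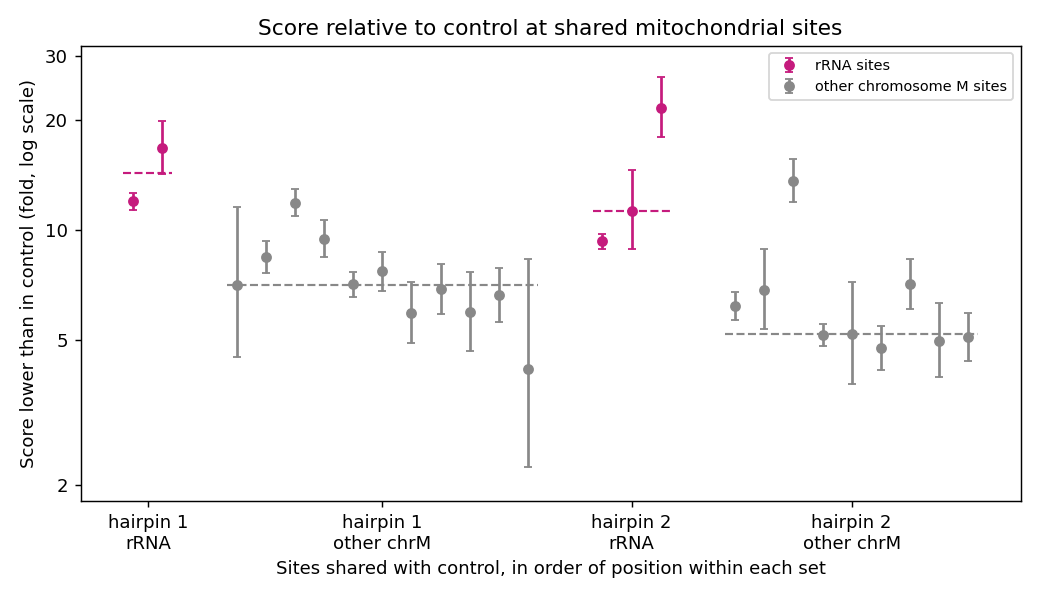
Fold by which the score was lower with each SETD2 hairpin than in control (vertical axis, log scale) at each chromosome M site shared with the control list; points are sites in order of position, bars are 95% exact counting intervals and dashed lines are medians of each set. The rRNA sites (magenta) have medians of 14.2-fold with hairpin 1 and 11.3-fold with hairpin 2, against 7.05-fold and 5.17-fold at the other chromosome M sites (grey), and the grey point at 13.6-fold with hairpin 2 lies among them.

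The size of the difference depended on the scale. With each score divided by the summed score of its list, the median log2 ratio at the shared rRNA sites was -0.37 with hairpin 1 and -1.19 with hairpin 2. All listed rRNA sites together held 8.16% of the summed score with hairpin 1, 8.03% with hairpin 2 and 8.92% in control. Fewer sequenced reads, less rRNA in the purified RNA and less rRNA bound by the antibody cannot be told apart in these lists. RefSeq lists 13 pseudogenes named MTRNR2L after MT-RNR2 in the nuclear genome. How reads that match several places were assigned is not given in the sources used here, so MT-RNR2 scores are uncertain to that extent.

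The 2 hairpins were set side by side at the 3 MT-RNR2 positions that both lists hold. The score with hairpin 2 was 1.29 times that with hairpin 1 at 2241 (interval 1.21 to 1.37), 1.09 times at 1712 (0.865 to 1.36) and 0.775 times at 2786 (0.603 to 0.993). Position 2786 was lower with hairpin 2 and 2241 higher, and at 1712 the interval contained equality. The median over the other 116 sites shared by the hairpins was 1.74.

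At 2 rRNA positions the C-to-T share was above the background of the list in all 3 lists. The background rates fitted to the lists were 1.43% with hairpin 1, 1.00% with hairpin 2 and 1.57% in control. A share above these rates in all 3 lists was not particular to the rRNAs. Among the other chromosome M sites it was also seen at 4919, 11284, 14400 and 15535. It was not seen at 10300 and 15680, where the control shares were 1.46% and 1.41%. At position 2241, between 58 and 61 reads were changed with hairpin 1, between 83 and 111 with hairpin 2 and between 582 and 645 in control, the order of names leaving a range. The share was therefore 3.61% to 3.79% with hairpin 1, 4.01% to 5.36% with hairpin 2 and 3.02% to 3.35% in control. At position 2786, 12 or 13 reads were changed with hairpin 1, 5 with hairpin 2 and 118 to 121 in control. The shares were 7.95% to 8.61% with hairpin 1, 4.27% with hairpin 2 and 4.66% to 4.78% in control. Both positions lay below the median share of each list, taken over sites with a single reconstructed value, most of them of lower score. That median was 11.1% with hairpin 1, 9.09% with hairpin 2 and 12.5% in control.

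Set against the fitted rate of its list, the share at 2241 was 2.52 to 2.66 times the rate with hairpin 1, 4.00 to 5.34 times with hairpin 2 and 1.93 to 2.14 times in control. At 2786 it was 5.56 to 6.03 times the rate with hairpin 1, 4.26 times with hairpin 2 and 2.97 to 3.05 times in control. The highest multiple among the rRNA entries was at position 1279 of MT-RNR1 in control, at 10.6 times. The other entries lay between 0.733 times, at 1532 with hairpin 2, and 2.77 times, at 2358 in control, where 1 changed read among 23 sets the share. Since the changed reads were themselves reconstructed with these rates, and all listed sites had been selected by the authors, the multiples are a description and no test was made of them.

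**Figure D3:**
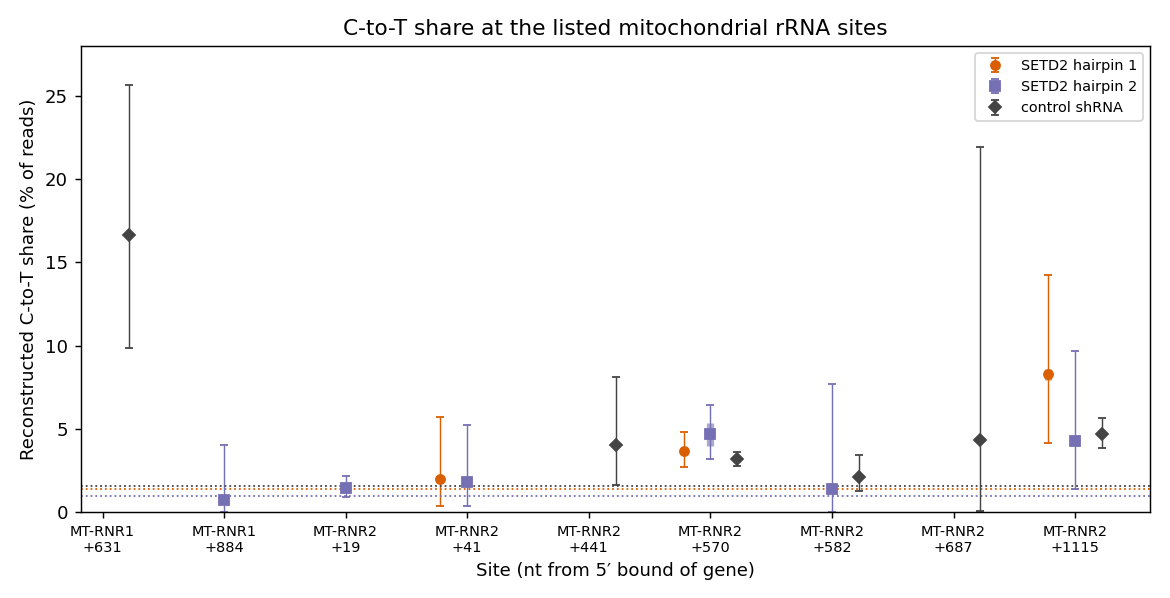
Reconstructed C-to-T share in percent of reads at each listed rRNA site (horizontal axis, nt from the 5′ bound of the gene); circles are SETD2 hairpin 1, squares SETD2 hairpin 2 and diamonds the control shRNA, thick bars the range of possible values, thin bars 95% exact intervals around it and dotted lines the fitted rate of each list. The MT-RNR1 point at 16.7% in control is the highest, and the points at 570 and 1115 nt into MT-RNR2 lie above the dotted lines in all 3 lists.

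The changed share at shared rRNA sites was not shown to differ between either hairpin and control. Per-site two-sided Fisher's exact tests were adjusted over all shared sites. Where the order of names leaves a single value in both lists, 0 of 198 shared sites passed with hairpin 1 (9 had an unadjusted p under 0.05), a background of 0%, and 3 of 217 with hairpin 2, or 1.38%. With hairpin 1 none of the rRNA sites is resolved in this way, and with hairpin 2 only 2253 is, with a share of 1.43% with hairpin 2 against 2.15% in control (Newcombe interval of the difference -2.45 to 5.56 percentage points; adjusted p = 1, Fisher's exact test).

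For the unresolved sites the test was made with the pair of values that brings the shares closest. By that rule 0.444% of all sites shared with hairpin 1 and 1.23% of those shared with hairpin 2 passed. Of the rRNA sites, 0 of 2 passed with hairpin 1 and 0 of 3 with hairpin 2. At position 2241 the share was 0.25 to 0.77 percentage points higher with hairpin 1 than in control (widest Newcombe interval -0.594 to 1.84), with an adjusted p of 1 by Fisher's exact test. With hairpin 2 it was 0.66 to 2.34 points higher (-0.149 to 3.42). Here the unresolved reads decided the call, since the adjusted p was 1 with the closest values, 0.308 with the lower ends of both ranges and 0.00261 with the upper ends, by Fisher's exact test. At position 2786 the share was 3.16 to 3.95 points higher with hairpin 1 (-0.298 to 9.56; adjusted p = 0.926, Fisher's exact test). With hairpin 2 it was between -0.51 and -0.39 points from that of control (-3.11 to 5.0; adjusted p = 1, Fisher's exact test). Each of these intervals contains 0, and the one at 2786 with hairpin 1 reaches past the control share itself.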

How the data were processed

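The analysis used 3 deposited site lists, 1 per shRNA, which the labels assign to all 3 replicates of each shRNA. Bowtie 1.1.2, cutadapt 1.13, FastQC 0.11.5 and build hg19 are credited to the submitters' processing notes, and per the labels the libraries were stranded. The site names carry the tool name rbsSeeker; its filters and its handling of replicates are not stated there. The deposited score is a whole number of at least 3 per site of 1 nt. Positions are the third column of the lists, 1-based.

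C-to-T reads were inferred. For each list, a background rate was searched at which whole numbers of changed reads place all sites in the order of their running numbers by the upper binomial probability. Such rates existed for all 3 lists (1.43%, 1.00% and 1.57%). With scores shuffled 3 times per list, a single pass that skipped sites out of order placed 55 sites or fewer. That pass does not find the largest number that could be placed, and sites of equal score can always be placed. The shuffled count is therefore not a like measure to set against the deposited order. A single value was left at 97.7% of sites with hairpin 1, 97.0% with hairpin 2 and 98.6% in control. The calculation was tested on data simulated with the same ordering rule, which cannot show whether the deposited lists follow that rule. The numbers are not a column of the files. No molecular identifiers are described, so reads may be copies of 1 molecule.

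Shared sites had equal position and strand. Shares have Clopper-Pearson intervals, score ratios exact conditional binomial intervals. Fisher's exact tests were adjusted (Benjamini-Hochberg) over all shared sites, at a threshold of 0.05. The rule for named sites takes every listed rRNA site. The comparison at like score (within 1.5-fold) and the test with the closest values were added after seeing the data, and members and tests were chosen with earlier results of these data known. No hg19 sequence was used here, so no bases are shown and motifs were not analysed. RefSeq symbols are of GRCh38.p14. Python 3.11.15, numpy 2.4.6, scipy 1.17.1, pandas 2.3.3 and matplotlib 3.10.9 were used.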

Additional observations from a re-analysis of the deposited data

How the results depend on the processing

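No paired analysis was possible because each shRNA has 1 deposited list for its 3 replicates, and for the same reason no replicate could be left out. Of 34 alternatives, 28 kept counts within 1.5-fold, calls on their side of the threshold and shares and ratios within their intervals: the numbers of rRNA sites, their share of the lists and the control rRNA sites found again under higher minimum scores, merging, tighter gene bounds and wider matching among them. With a score of at least 10, the rRNA share of sites was 1.17% with hairpin 1, 1.43% with hairpin 2 and 0.263% in control (untested), over 1.5 times the full-list shares because shallow sites elsewhere drop out. The median log2 score ratio at shared rRNA sites (-3.82 with hairpin 1, -3.50 with hairpin 2) moved with scaling but stayed below 0. Relative to the summed score of the list it was -0.37 with hairpin 1 and -1.19 with hairpin 2, and relative to that of the other chromosome M sites -1.22 with hairpin 1 and -0.84 with hairpin 2. Without position 2241 it was -3.97 with hairpin 2, an alternative chosen after seeing the data. Before that removal, the medians cover 2 shared sites with hairpin 1 and 3 with hairpin 2, and not all listed rRNA sites. Of rRNA sites with a changed share different from control in the Fisher's exact test, 0 were called with hairpin 2, but 1 (2241) with unresolved reads at their upper ends. With hairpin 1 the planned test had no rRNA site with a single reconstructed value, with or without a minimum score of 50, so its alternatives are not among those counted; with ranges at the lower end, the upper end or the closest values it called 0 of 2. The sites at 1532 and 2253 with hairpin 2 and at 2358 in control rest on 1 changed read each.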
